A study of Mus musculus with 7 samples.

Results

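The 10 genes described here are repressors and outputs of the circadian clock: the period genes Per1, Per2 and Per3, the cryptochromes Cry1 and Cry2, Ciart, the PAR bZIP factors Dbp, Tef and Hlf, and Nfil3. They were chosen by name, with earlier results from these same expression values in view, so every level and difference below is a description. All 10 were found among the 22552 symbols of the table, 9 by symbol and Ciart under its older symbol Gm129. Most of the 10 genes differed between ear and back in both layers of the skin. Per2, Per3, Cry1, Dbp, Tef and Hlf were lower in the libraries of the back, and Per1 and Nfil3 were higher. Per1 was no longer higher in dermis once epidermal RNA was subtracted, a step that also lowered dorsal against ear dermis over all genes. Both Per1 and Nfil3 were highest in tail dermis. Ears of Koa mice also had less Per2, Per3, Cry1, Ciart, Dbp and Tef than wild-type ears in both layers, and slightly less Cry2 and Hlf. Only Per2, Cry1 and Ciart passed the size rule given below in both layers, and that set depends on the pseudocount.

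RNA of skin cells purified by flow sorting from CD1/C3H mice at postnatal day 50 was sequenced in 7 libraries, 1 for each group. Wild-type mice (Wt/Wt, here WT) gave dermis of ear, back (dorsal) and tail and epidermis of ear and back. Mice with 1 Koa allele (Wt/Koa, here Koa) gave both layers of the ear. Koa is a dominant inversion on chromosome 15, known for long hair on the ear. The labels give neither the number of animals behind a library nor the hour of collection, and no group has a replicate. Region, genotype and any other difference between the animals or collections behind 2 libraries therefore cannot be told apart.

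In every cell the clock runs as a loop. CLOCK (or NPAS2) and BMAL1, the product of Arntl, bind E-boxes and switch on Per, Cry and Ciart, whose proteins then block them. The same activators drive Dbp, Tef and Hlf, factors that activate genes through D-boxes, while NFIL3 represses through the same element. Levels of these RNAs cycle over the day in skin as in most tissues, and Per1 RNA is also induced by acute signals such as glucocorticoids and cAMP.

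Depth recovered from the low values lay between 31.8 and 40.5 M fragments in the 6 ear and back libraries. It is unknown for the tail library, whose column holds at most 2 decimals and lists 222 of 4885 genes at 0 that stand at 10 FPKM or more in each of the others (none of the 10 genes). FPKM counts fragments by transcript length and library depth. The tail library also stands apart in Xist, at 41.5 FPKM against at most 0.122 FPKM elsewhere. Ddx3y is listed at 0 there, against 33.1 to 38.3 FPKM elsewhere, though other genes are listed at 0 there too. Both genes are sex-linked, so in comparisons with the tail a difference of sex cannot be told apart from region. Fibroblast markers summed to between 5111 and 10490 FPKM in the dermal libraries and at most 109 FPKM in the epidermal ones. Relative to the matching epidermis, the median basal keratinocyte marker stood at 6.59% in WT ear dermis, 10.9% in Koa ear dermis and 40.7% in WT dorsal dermis.

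Differences are given on the log2(FPKM + 1) scale. A gene is counted as higher or lower when it differs by at least 1 on that scale (the size rule) and reaches 1 FPKM in 1 of the 2 libraries. With 1 library in each group there is no test. Ratios carry exact 95% intervals of counting error, from fragments rebuilt with the recovered depth and the longest annotated transcript. They cover neither variation between animals nor the division of reads among transcripts.

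The genes lie on 9 chromosomes (positions from RefSeq, GRCm38). Per1 (chromosome 11, 69095108 to 69109965) and Hlf (chromosome 11, 90336535 to 90390917) share one. Tef (chromosome 15, 81802673 to 81826863) lies between Trps1 (from 50654757) and the Hoxc cluster (to 103036856), the neighbourhoods of the 2 ends of the Koa inversion. No breakpoint was read from these data.

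The promoters of Ciart, Cry1, Per1 and Per3 are shown because Ciart and Cry1 were lower in Koa ears in both layers while Per1 and Per3 went opposite ways between ear and back, and because 3 of the windows hold an E-box and 1 holds D-boxes. Each is the 250 bases before a start site (RefSeq, GRCm38.p6), 5′ to 3′ on the gene's strand. The table holds 2 windows for Per1, both inside the span of the gene given above: the one shown holds the E-box, and the other (chr11:69099902-69100151) holds none of the motifs marked here. Capitals mark CACGTG (E-box), CACGTT or its reverse complement (an E-box variant), and TTATGTAA or TTACGTAA (D-box), searched on both strands.
Ciart, chr3:95882229-95882478, minus strand: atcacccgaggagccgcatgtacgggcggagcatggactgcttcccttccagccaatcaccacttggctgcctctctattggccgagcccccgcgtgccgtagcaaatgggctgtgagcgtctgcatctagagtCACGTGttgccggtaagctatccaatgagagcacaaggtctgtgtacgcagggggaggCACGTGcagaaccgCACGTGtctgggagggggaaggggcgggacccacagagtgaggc
Cry1, chr10:85185055-85185304, minus strand: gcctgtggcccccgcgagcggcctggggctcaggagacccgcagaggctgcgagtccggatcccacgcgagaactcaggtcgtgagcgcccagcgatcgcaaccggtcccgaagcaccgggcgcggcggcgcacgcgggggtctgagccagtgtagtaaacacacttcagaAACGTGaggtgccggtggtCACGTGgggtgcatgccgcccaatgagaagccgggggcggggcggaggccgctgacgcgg
Per1, chr11:69098699-69098948, plus strand: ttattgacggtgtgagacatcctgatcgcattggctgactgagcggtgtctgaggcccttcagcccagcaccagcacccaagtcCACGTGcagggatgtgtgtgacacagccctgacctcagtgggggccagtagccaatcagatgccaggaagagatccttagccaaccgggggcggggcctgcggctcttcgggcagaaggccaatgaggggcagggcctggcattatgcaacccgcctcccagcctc
Per3, chr4:151044666-151044915, minus strand: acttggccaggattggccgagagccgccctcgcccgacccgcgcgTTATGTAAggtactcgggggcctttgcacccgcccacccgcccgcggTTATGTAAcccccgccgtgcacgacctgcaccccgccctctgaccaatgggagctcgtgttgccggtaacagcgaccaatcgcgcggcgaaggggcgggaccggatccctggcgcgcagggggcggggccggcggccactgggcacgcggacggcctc
CACGTG was found in windows of 4 of the 9 genes with a promoter in the table (Per1, Cry1, Ciart and Tef) and in 6.02% of all 32851 windows of that length. The genes are counted if any of their windows holds the motif (Per1 and Tef have more than 1), while the shares count windows. Ciart had it 3 times, at 116, 58 and 44 bases before its start site. A D-box was found only for Per3 among the 9, 2 times, at 205 and 158 bases before the start, against 0.931% of all windows. The variant CACGTT was found for Cry1 and Cry2, and in 3.85% of all windows. A match is a string of letters, not a measured binding site.

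Among the repressors, Per2 had the highest ratio of its highest to its lowest level, 21.1 over the 7 libraries. Per2 stood at 8.26 FPKM in WT ear dermis, 3.20 in Koa ear dermis, 0.658 in WT dorsal dermis and 6.41 in WT tail dermis, and at 5.42, 1.65 and 0.392 FPKM in WT ear, Koa ear and WT dorsal epidermis. In each layer the WT ear was highest and the back lowest, with the Koa ear between them. Both back libraries lay under 1 FPKM, at 120 fragments in dermis and 70 in epidermis. The WT ear level was 12.6 times that of the back in dermis (10.4 to 15.3) and 13.8 times in epidermis (10.9 to 17.9). In bulk RNA, fewer cells with the transcript and less of it per cell cannot be told apart.

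Per3, whose product pairs with the other period proteins, had the same order. Per3 stood at 12.8, 5.27, 1.41 and 5.13 FPKM in WT ear, Koa ear, WT dorsal and WT tail dermis, and at 9.53, 4.57 and 1.65 FPKM in WT ear, Koa ear and WT dorsal epidermis. WT ear was 9.07 times WT dorsal in dermis (7.98 to 10.3) and 5.79 times in epidermis (5.13 to 6.55). The 2 back libraries did not differ beyond counting error, with a ratio of dermis to epidermis of 0.854 (0.723 to 1.01).

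Per1 went the other way. Per1 stood at 13.4, 12.6, 35.3 and 82.0 FPKM in WT ear, Koa ear, WT dorsal and WT tail dermis, and at 10.2, 13.01 and 56.5 FPKM in WT ear, Koa ear and WT dorsal epidermis. The 4 ear libraries lay close together and the 3 libraries of back and tail lay above all of them. The back was 5.52 times the ear in epidermis (5.25 to 5.81) and 2.63 times in dermis (2.50 to 2.77). With the epidermal share subtracted from both dermal libraries, the dermal difference of 1.33 turned to -0.044. What was left was not rescaled, and the median over all genes then stood at -0.81, so Per1 still lay above the median gene. The 2 layers of the Koa ear did not differ beyond counting error, at a ratio of dermis to epidermis of 0.970 (0.912 to 1.03).

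The make-up of the period RNA differed between the libraries. Per1 made up 39.0% of the summed Per FPKM in WT ear dermis and 40.6% in WT ear epidermis, 59.8% and 67.6% in the Koa ear, and 94.5% and 96.5% in the back. The sum itself stood at 34.4, 21.1, 37.4 and 93.5 FPKM in WT ear, Koa ear, WT dorsal and WT tail dermis, and at 25.2, 19.2 and 58.6 FPKM in WT ear, Koa ear and WT dorsal epidermis. The tail library resembled the back in this share, at 87.7%.

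**Figure D1:**
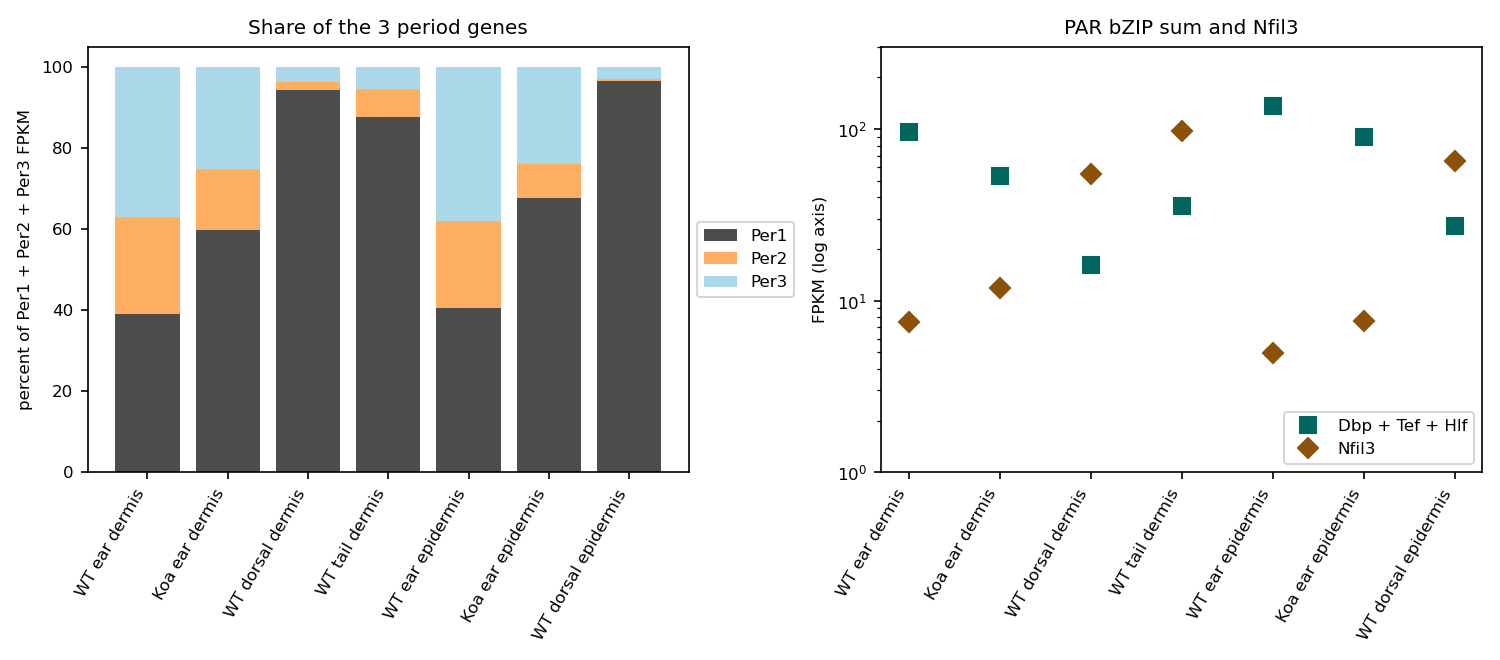
Left, the share of Per1, Per2 and Per3 in their summed FPKM (percent) in each of the 7 libraries. Right, the summed FPKM of Dbp, Tef and Hlf (squares) and the FPKM of Nfil3 (diamonds) on a log axis. Each bar or point is 1 library, without error bars since no group has a replicate. Per1 makes up over 87% in the libraries of back and tail, and only in those does Nfil3 lie above the sum.

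Cry1, a cryptochrome that holds the activator complex in check late in the cycle, followed Per2 and Per3. Cry1 stood at 24.3, 11.1, 5.63 and 12.9 FPKM in WT ear, Koa ear, WT dorsal and WT tail dermis, and at 25.5, 9.84 and 7.69 FPKM in WT ear, Koa ear and WT dorsal epidermis. The 2 WT ear layers did not differ beyond counting error, at a ratio of dermis to epidermis of 0.952 (0.902 to 1.00). The Koa ear was lower than the WT ear by 2.19 times in dermis (2.04 to 2.36) and 2.59 times in epidermis (2.41 to 2.79).

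Cry2, the other cryptochrome, had the narrowest range of the 10 genes over the 6 ear and back libraries on the log2(FPKM + 1) scale. Cry2 stood at 22.8, 17.8, 9.56 and 68.8 FPKM in WT ear, Koa ear, WT dorsal and WT tail dermis, and at 15.9, 14.2 and 13.8 FPKM in WT ear, Koa ear and WT dorsal epidermis. It passed the size rule between back and ear in dermis alone (-1.18, against -0.19 in epidermis), and the difference between the layers was not tested. The tail level was the highest of the 7. Cry1 stood above Cry2 (FPKM) in both WT ear libraries, by 1.06 times in dermis and 1.61 times in epidermis, and lay below it in the other 5.

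Ciart, a repressor that binds BMAL1, had an order of its own in dermis. Ciart stood at 7.79, 2.10, 4.90 and 3.74 FPKM in WT ear, Koa ear, WT dorsal and WT tail dermis, and at 11.03, 3.55 and 3.26 FPKM in WT ear, Koa ear and WT dorsal epidermis. The Koa ear was the lowest of the 4 dermal libraries. WT ear stood at 3.71 times Koa ear in dermis (3.04 to 4.52) and 3.10 times in epidermis (2.67 to 3.63) (on the log2(FPKM + 1) scale the widest difference of the 10 genes in each layer, though Per2 had the higher ratio in epidermis, 3.28, 2.90 to 3.72). Its promoter, shown above, holds the 3 E-boxes.

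**Figure D2:**
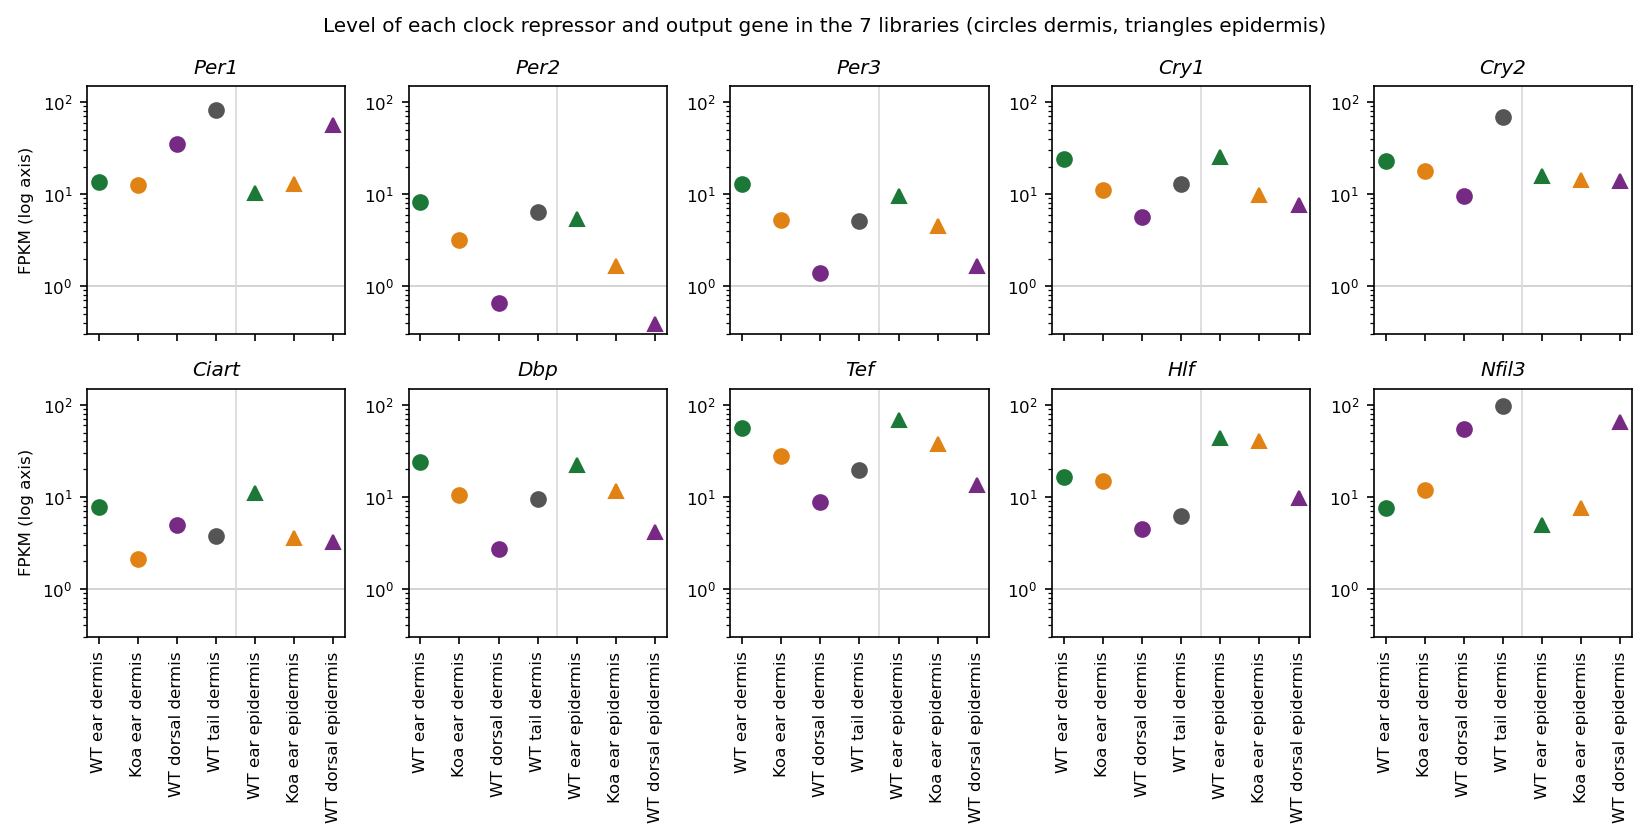
FPKM of each of the 10 genes (log axis) in the 7 libraries, with circles for dermis and triangles for epidermis, and green for WT ear, orange for Koa ear, purple for WT dorsal and grey for WT tail. The horizontal line is at 1 FPKM and each point is 1 library. Per2, Per3, Cry1, Dbp and Tef step down from WT ear to Koa ear to the back in both layers, while Nfil3 steps up.

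The PAR bZIP genes are the direct output arm of the clock, and Dbp and Tef had the same order of the 3 origins as Per3 in each layer. Dbp stood at 23.7, 10.6, 2.73 and 9.39 FPKM in WT ear, Koa ear, WT dorsal and WT tail dermis, and at 22.1, 11.6 and 4.13 FPKM in WT ear, Koa ear and WT dorsal epidermis. WT ear was 8.68 times WT dorsal in dermis (7.32 to 10.4) and 5.36 times in epidermis (4.63 to 6.20). Within the WT ear the layers did not differ beyond counting error (ratio 1.07, 0.993 to 1.15).

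Tef, the most abundant of the PAR bZIP genes in 6 of the 7 libraries, had the same order. Tef stood at 55.5, 28.0, 8.78 and 19.7 FPKM in WT ear, Koa ear, WT dorsal and WT tail dermis, and at 69.0, 37.7 and 13.4 FPKM in WT ear, Koa ear and WT dorsal epidermis. WT ear was 6.32 times WT dorsal in dermis (5.95 to 6.72) and 5.16 times in epidermis (4.91 to 5.42). Between Koa and WT ear its differences of -0.96 and -0.86 lay just short of the size rule.

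Hlf differed from both in layer and in genotype. Hlf stood at 16.5, 14.9, 4.52 and 6.24 FPKM in WT ear, Koa ear, WT dorsal and WT tail dermis, and at 44.1, 40.7 and 9.68 FPKM in WT ear, Koa ear and WT dorsal epidermis. Epidermis was higher than dermis by 2.68 times in the WT ear (2.57 to 2.79), 2.74 times in the Koa ear (2.62 to 2.86) and 2.14 times in the back (1.97 to 2.33). The Koa and WT ears differed by -0.14 in dermis and -0.11 in epidermis. Hlf made up 45.2% of the summed PAR bZIP FPKM in Koa ear epidermis against 32.6% in WT ear epidermis, and 27.8% against 17.2% in dermis.

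Nfil3, the repressor of D-box genes, had the widest range of the 10 genes over the 6 ear and back libraries on the log2(FPKM + 1) scale, while Per2 had the higher ratio of highest to lowest (21.1 against 13.2). Nfil3 stood at 7.54, 11.9, 54.8 and 96.7 FPKM in WT ear, Koa ear, WT dorsal and WT tail dermis, and at 4.93, 7.61 and 65.0 FPKM in WT ear, Koa ear and WT dorsal epidermis. The back was 7.27 times the WT ear in dermis (6.62 to 8.01) and 13.2 times in epidermis (11.8 to 14.7). The ratio of the summed RNA of the D-box activators to that of the repressor turned over between ear and back. Neither protein nor activity at D-boxes was measured. Dbp, Tef and Hlf together stood at 12.7 times Nfil3 in WT ear dermis and 27.4 times in WT ear epidermis, at 4.50 and 11.8 times in the Koa ear, and at 0.292 and 0.419 times in the back. In the tail the ratio was 0.366.

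The range from the lowest to the highest of the 6 ear and back libraries lay between 1.18 (Cry2) and 3.48 (Nfil3) on the log2(FPKM + 1) scale, against a median of 1.15 over 14760 expressed genes. For Nfil3 9.26% of genes had a range at least as wide, for Hlf 12.4% and for Cry2 48.8%. Over these 6 libraries Pearson's r of the 21 pairs among Per2, Per3, Cry1, Cry2, Dbp, Tef and Hlf lay between 0.46 and 0.99. Per1 had r between -0.87 and -0.60 with these 7 genes and Nfil3 between -0.96 and -0.67, while Per1 and Nfil3 had 0.97 with each other. Ciart had r between 0.19 and 0.71 with the 7. These values describe 3 origins of skin, each seen in 2 layers.

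Between Koa and WT ears, 5 of the 10 genes were lower in dermis by the size rule (Per2, Per3, Cry1, Ciart and Dbp) and none was higher, where 1.07% of 13690 expressed genes were lower and 1.71% higher. In epidermis 3 were lower (Per2, Cry1 and Ciart) and none higher, against 0.854% and 2.15% of 12062 genes. Since the genes were chosen with these differences known, the counts show only where the 10 genes stand. The 2 comparisons share no library, though the labels do not say whether the layers came from the same animals. Side by side, the dermal and epidermal differences were -1.14 and -1.27 for Per2, -1.13 and -0.92 for Per3, -1.07 and -1.29 for Cry1, -1.50 and -1.40 for Ciart, and -1.09 and -0.88 for Dbp. Nfil3 stood 0.59 and 0.54 above WT. The median over the 10 genes was -1.01 in dermis and -0.87 in epidermis, beside -0.00 and -0.01 over all genes. At a pseudocount of 5 no gene passed in dermis and 1 in epidermis.

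Koa ear dermis also held more keratinocyte RNA, with 5 of 8 basal markers higher and a summed level of 1981 against 793 FPKM. Mast cell markers were lower, 4 of 4, at a sum of 143 against 404 FPKM. Suprabasal keratinocyte markers (3 of 6, 590 against 198 FPKM) and Schwann cell markers (2 of 4, 64.5 against 27.9 FPKM) were higher. Of the T and Langerhans cell markers 1 of 4 was higher (99.5 against 42.9 FPKM), and 1 of 5 myeloid markers was lower (679 against 918 FPKM). With the epidermal share subtracted, the same 5 genes and Tef (-1.06) were lower in Koa dermis. The part of these cell types in the differences of the clock genes was not tested. In epidermis none of the 8 basal markers passed the size rule, and the mast cell markers summed to at most 0.406 FPKM in the 3 libraries.

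Between back and ear, 9 of the 10 genes passed the size rule in each layer. In dermis 7 were lower (Per2, Per3, Cry1, Cry2, Dbp, Tef and Hlf) and 2 higher (Per1 and Nfil3), where 7.05% of 14234 genes were lower and 11.7% higher. In epidermis 7 were lower, with Ciart in place of Cry2, and the same 2 higher, against 5.47% and 11.5% of 12500 genes. The medians over the 10 genes were -1.80 in both layers, beside -0.05 and -0.02 over all genes. These comparisons share the WT ear libraries with those of the Koa ear.

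**Figure D3:**
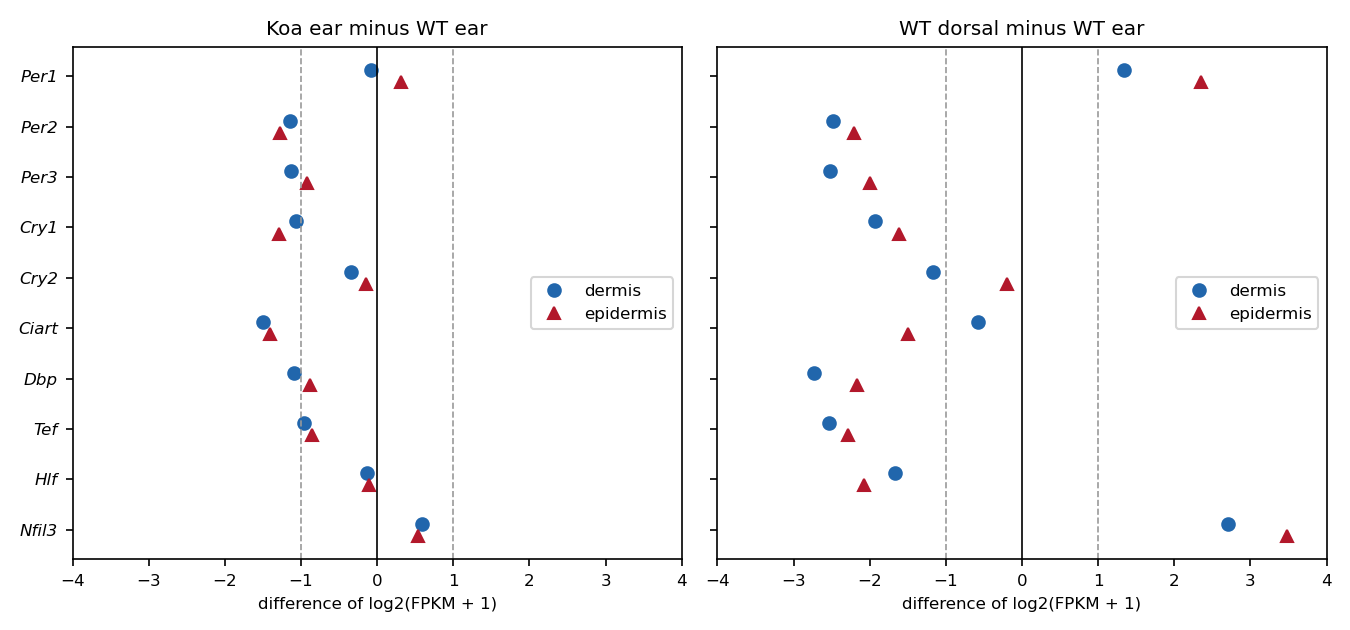
Difference of log2(FPKM + 1) of each gene between Koa and WT ear (left) and between WT dorsal and WT ear skin (right), with circles for dermis and triangles for epidermis. Dashed lines mark a difference of 1 in either direction, and both panels share the WT ear libraries. In the right panel Per1 and Nfil3 lie right of the upper dashed line, while Per2, Per3, Cry1, Dbp, Tef and Hlf lie left of the lower one.

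Early response genes, which cells switch on within minutes of stimulation, moved with the back and tail. All 10 on the list were higher in dorsal than in ear skin in both layers (medians 3.57 in dermis and 3.55 in epidermis), and their summed level was 6076 against 529 FPKM in dermis and 11748 against 877 FPKM in epidermis. Atf3, a stress-induced factor, reached 642 FPKM in dorsal dermis against 8.17 FPKM in ear dermis. In Koa against WT ears none of the 10 passed the size rule in either layer (medians 0.28 and 0.11). Glucocorticoid-induced genes were split in dorsal epidermis, 4 of 6 higher and 1 lower. Errfi1, a feedback inhibitor of the EGF receptor, stood at 218 against 17.3 FPKM, and Fkbp5, a co-chaperone of the glucocorticoid receptor, at 6.54 against 22.5 FPKM. Klf9 stood at 62.9 against 10.3 FPKM there. Against WT ear dermis, 2 of the 6 were higher and 0 lower in dorsal dermis, where 11.7% of all genes were higher. In tail dermis 4 were higher and 0 lower (median 1.34), where 6.32% of all genes were higher. The part of either list in the levels of Per1 and Nfil3 was not tested.

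In dorsal dermis all 8 basal keratinocyte markers were higher than in ear dermis (6562 against 793 FPKM summed). With the epidermal share subtracted, the same 7 genes were lower than in the ear and only Nfil3 (1.84) was higher, while 42.1% of all genes then passed the rule and their median was -0.81. Mast cell markers (4 of 4) and cartilage markers (4 of 5) were lower in dorsal dermis, at sums of 74.4 against 404 FPKM and 32.2 against 415 FPKM. T and Langerhans cell markers were higher, 4 of 4 (191 against 42.9 FPKM), and 3 of 8 fibroblast markers were lower and none higher (5111 against 10490 FPKM). The part of these cell types was not tested. In epidermis, where the basal markers had a median difference of 0.08, the same 2 genes were higher and 7 lower as given above. Suprabasal keratinocyte markers did differ there, with 4 of 6 higher in dorsal epidermis (median 1.28, summed 6943 against 4488 FPKM), and their part was not tested.

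Tail dermis, compared with WT ear dermis, had 3 genes higher (Per1, Cry2 and Nfil3) and 4 lower (Per3, Dbp, Tef and Hlf). Over all 13666 genes 6.32% were higher and 27% lower, so the lower members stand near the background, and the median over all genes was -0.51. Scaled by median ratios, the same 3 were higher and only Tef was lower. Nfil3 reached 12.8 times its ear level and Per1 6.11 times. Per2 stood at 6.41 against 8.26 FPKM, a difference of -0.32 that became 0.08 with median ratio scaling. All 10 early response genes were higher in the tail as well (median 4.31), and all 4 melanocyte markers were, at a sum of 1740 against 115 FPKM. Basal keratinocyte markers were lower in the tail, 6 of 8 (135 against 793 FPKM), as were myeloid markers, 3 of 5 (80.1 against 918 FPKM), and cartilage markers, 5 of 5 (24.8 against 415 FPKM). Endothelial markers were higher, 3 of 5 (59.7 against 22.4 FPKM). The part of these genes and cell types in the tail levels was not tested.

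Between dermis and epidermis few of the 10 genes passed the size rule. Hlf alone passed the size rule in the WT ear and in the Koa ear, lower in dermis, where 14.4% and 12.7% of all genes were lower and 21.3% and 20.4% higher. In dorsal skin none of the 9 expressed genes passed, against 8.27% lower and 16.1% higher. Per2, under 1 FPKM in both back libraries, was not counted there. The call in dorsal skin depends on the epidermal RNA in the dermal library: with its share subtracted, 7 of the 9 genes were lower in dermis (Hlf -2.76, Per1 -2.11 and Tef -1.73), while the median over all genes went to -0.88. The subtraction lowers dermal values in general, so these 7 calls cannot be read as a layer difference particular to the clock genes.

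Of the clock activators and nuclear receptors that share the loop, Arntl and Clock did not pass the size rule in any comparison of ear and back. In tail dermis Clock was lower, at 7.74 against 17.5 FPKM in WT ear dermis, where 27% of all genes were lower. Arntl stood at 22.8, 34.3 and 26.8 FPKM in WT ear, Koa ear and WT dorsal dermis, and at 26.9, 33.6 and 32.1 FPKM in epidermis. Npas2, the partner that can replace CLOCK, stood at 8.86 against 3.10 FPKM in Koa and WT ear dermis and at 6.61 against 2.88 FPKM in epidermis. Set against the output gene Dbp, Arntl stood at 0.962 times in WT ear dermis, 3.24 times in Koa ear dermis and 9.82 times in WT dorsal dermis.

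The list of 10 such genes had 1 higher and 1 lower in Koa ear dermis, and 0 higher and 1 lower in Koa ear epidermis. Over all genes 1.71% were higher and 1.07% lower in dermis, and 2.15% and 0.854% in epidermis. The lower gene of the list was Bhlhe41 in both layers, a repressor that competes for E-boxes. It stood at 9.28 against 22.2 FPKM in dermis and 12.8 against 34.2 FPKM in epidermis. In the back 2 were higher in each layer, with 3 lower in dermis and 2 in epidermis. Over all genes 11.7% were higher and 7.05% lower in dermis, and 11.5% and 5.47% in epidermis, so the count of 2 higher is not far from that share. Bhlhe40, the close relative of Bhlhe41, stood at 206 against 19.9 FPKM in dorsal and ear epidermis, and Bhlhe41 at 2.52 against 34.2 FPKM. In dermis Bhlhe40 stood at 136 against 31.0 FPKM and Bhlhe41 at 5.86 against 22.2 FPKM. In both layers of the back that pair lay on opposite sides of the ear, as Per1 and Per2 did (Per1 in dermis before epidermal RNA was subtracted).

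**Figure D4:**
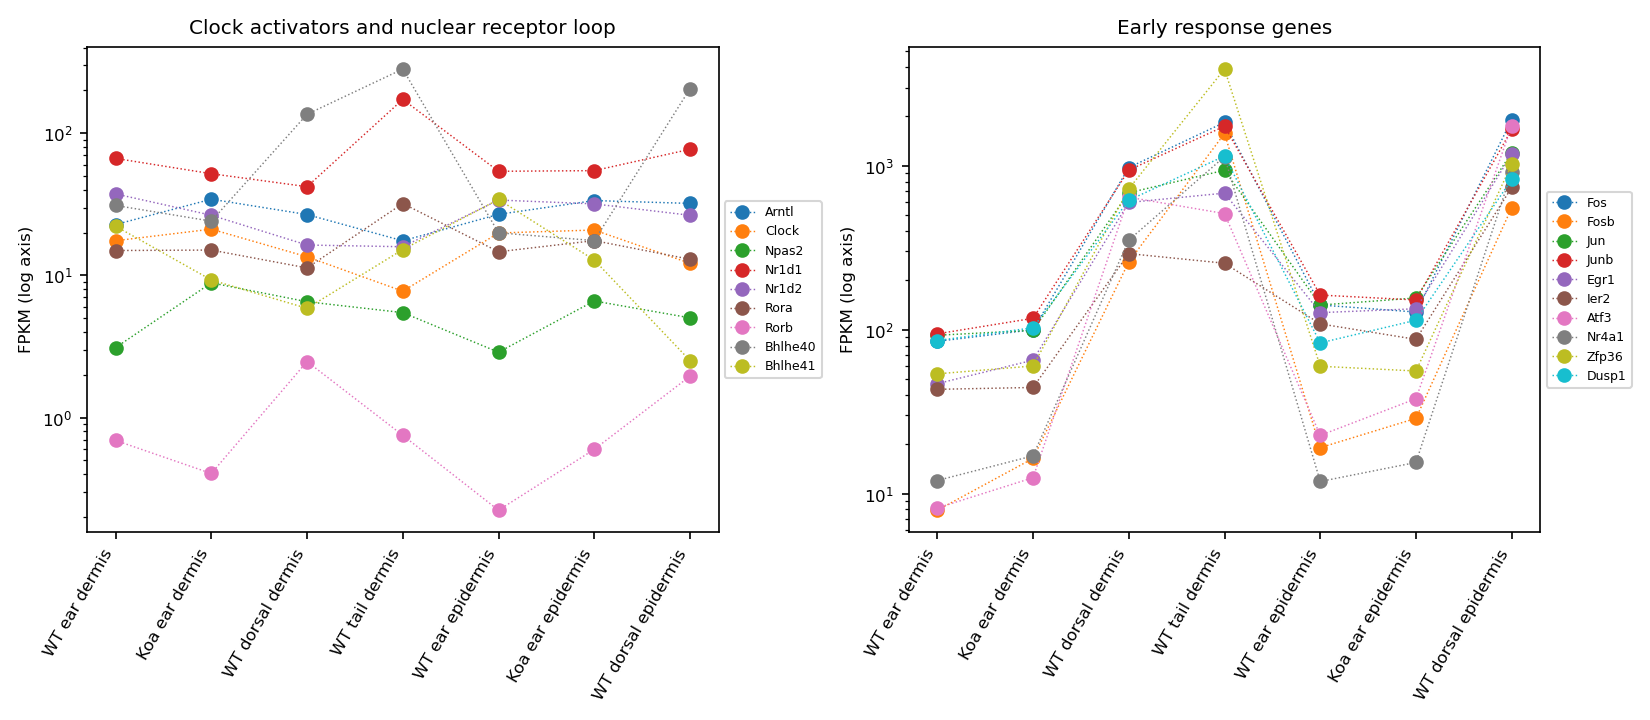
FPKM (log axis) of 9 of the 10 clock activators and nuclear receptor loop genes (left) and of the 10 early response genes (right) in the 7 libraries. Each point is 1 library and the dotted lines only join the points of a gene. The early response genes lie higher in the libraries of back and tail than in those of the ear, while Arntl stays between 17.5 and 34.3 FPKM.

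Kinases and ubiquitin ligases that act on clock proteins stayed short of the size rule. None of the 8 passed it between Koa and WT ears, between back and ear or between tail and ear. Between Koa and WT ears 2.78% of all genes passed in dermis and 3% in epidermis, so none of 8 says little there. The share was 18.8% in dermis and 16.9% in epidermis between back and ear, and 33.3% between tail and ear dermis. Fbxl21 came closest to the rule, at -0.98 between dorsal and ear dermis (0.263 FPKM in dorsal dermis), the direction of most of the 10 genes. Csnk1d, a kinase of the period proteins, stood between 37.2 and 49.8 FPKM in the 7 libraries.

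Among the 6 genes most like the mean profile of the 10 over the 6 ear and back libraries, of 11382 genes at 5 FPKM or more in 1 of them, were Btbd10 (r = 0.99), Sap30l (0.99), Dusp12 (0.99), Agpat2 (0.98) and Ppp2r4 (0.98). Dusp12 stood at 18.8, 10.6 and 8.82 FPKM in WT ear, Koa ear and WT dorsal dermis. Among the 4 most like Dbp alone were Smyd2, Chmp6 and Usp38, each with r = 1.00 after rounding. Smyd2 stood at 34.3, 24.8 and 15.3 FPKM in the same 3 libraries, so its range was narrower than that of Dbp. Both sets are the top of a ranking of 11382 genes over only 6 libraries, which by itself favours values of r near 1. The mean profile also averages in Per1 and Nfil3, which ran opposite to most of the 10.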

How the data were processed

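The table of FPKM values was deposited by the authors as a single file. Its making involved Cufflinks (version 2.2.1), TopHat2 (version 2.0.13) and the builds GRCm38 and mm9, per the submitters' processing notes. The role of each build and the gene annotation are not given in the sources used here. Columns were matched to samples by title, Noct was found as Ccrn4l, and 2 column names are misspelled. Col1a1, Col1a2 and Col3a1, listed at 0 in some dermal libraries, were left out of all counts.

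Relative depth came from the ratios of whole fragments among genes under 0.5 FPKM: 49.7% to 54.1% of the ratios to WT ear dermis lay on such steps (within 0.002 on the natural log scale). Absolute depth came from a line through 118 genes with 1 transcript (length offset 210.9 nt), with GENCODE lengths. The procedure and the size rule were tested on simulated data. Computations used Python 3.11.15, pandas 2.3.3 and scipy 1.17.1.

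The 10 genes, the other lists and the comparisons were chosen with earlier results of these data known. Named are all 10 genes, up to 4 list members with the widest differences, the 6 genes most like the mean profile and the 4 most like Dbp by Pearson's r, while Arntl, Clock, Npas2, Csnk1d and Nr1d1 were picked with their values known. Some genes that this rule names are not reported here. The alternatives were pseudocounts of 0.1 and 5, no filter or 5 FPKM, 2 scalings, and subtraction of the epidermal share (the matching epidermal profile times the median share of 8 basal keratinocyte markers, taken from each dermal library). What was left after the subtraction was not rescaled. Positions and promoters come from RefSeq (GRCm38.p6), since the table holds no coordinates. With 1 library per group no test was made.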

Additional observations from a re-analysis of the deposited data

Results flagged for a closer look

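Per1 lay on opposite sides of 0 in the 2 layers of the Koa ear. It differed from the WT ear by -0.08 in dermis (12.6 against 13.4 FPKM) and by 0.32 in epidermis (13.01 against 10.2 FPKM) on the log2(FPKM + 1) scale. Each value rests on 1 library, neither passes the size rule, and the difference between the layers was not tested. No group has enough libraries to look for an outlying one.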

How the results depend on the processing

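No paired analysis was possible because each group has 1 library. Of 518 differences of single genes recomputed under the alternatives, 490 stayed on their side of the size rule (13 of them, short of the rule, with the other sign). Another 27 crossed it and 1 past the rule reversed. That was Per1 between dorsal and ear dermis, at -0.044 once the epidermal share was subtracted. The median over all genes in that setting was -0.81. At a pseudocount of 5 the number of genes past the rule became 0 (from 5) between Koa and WT ear dermis, 1 (from 3) in epidermis and 4 (from 7) between tail and ear dermis. Over all genes, the share past the rule in Koa dermis was 4.97% at a pseudocount of 0.1, 2.78% at 1 and 1.35% at 5. Median ratio scaling also gave 4 for the tail, moving the median over all genes from -0.51 to -0.10. Between dorsal dermis and epidermis the number went from 0 to 1 at a pseudocount of 0.1, and to 7 with the epidermal share subtracted. There the median over all genes was -0.88, so that the subtraction lowers dermal values in general. With equal totals the median over all genes was -0.46 between dorsal and ear epidermis and -0.26 in dermis, and 9 genes passed in each as before. Between the layers of dorsal skin the median of the 9 genes counted was -0.46, and 0.03 with equal totals. The lowest count behind a ratio is 70 fragments, for Per2 in dorsal epidermis.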

Other observations

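Among other genes known to follow the clock, none of 5 passed the size rule between Koa and WT ears in either layer. In dorsal epidermis 2 of the 5 were higher than in ear epidermis: Usp2, a ubiquitin protease, at 15.4 against 3.06 FPKM, and Noct, a phosphatase that cycles in many tissues, at 13.6 against 3.35 FPKM. In dorsal dermis only Noct passed, at 4.85 against 1.53 FPKM. Wee1, a cell cycle kinase with E-boxes in its promoter, stood at 39.0 against 19.4 FPKM in dorsal and ear epidermis.

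Nr1d1, a nuclear receptor that represses Arntl, reached 173 FPKM in tail dermis, against 42.0 to 77.0 FPKM in the other 6 libraries.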
